A study of Drosophila melanogaster with 2 samples.

Results

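The Dpr, DIP, Beat and Side families are cell-surface and secreted proteins with immunoglobulin domains that Drosophila neurons use to find and recognise their partners. Their genes were taken by symbol from the annotation of the dm6 genome (dpr with a number, DIP-, beat- and side), which gave 54 of 13945 protein-coding genes on the 6 chromosomes: 21 Dpr, 11 DIP, 14 Beat and 8 Side genes. A peak of the DNA-binding protein CLAMP was counted for a gene when its summit lay within 1 kb of a transcription start site (TSS) of the gene or inside the gene. The peaks were those of the authors' optimal set, retained from both replicates together. By this rule 5 optimal peaks belonged to 4 of the 54 genes, and the other 3072 peaks of the set lay elsewhere.

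CLAMP occupancy was measured by chromatin immunoprecipitation and sequencing (ChIP-seq) in whole Drosophila melanogaster embryos collected from 0 to 24 h, with males and females pooled. All embryos came from 1 transgenic line that stably makes CLAMP (CG1832) with GFP at its C terminus, and sonicated chromatin of 200 to 800 bp was recovered with an antibody against GFP. There were 2 biological replicates, numbered 4 and 2, in 1 group, with no second genotype, treatment or stage. No cell type was separated, so a site bound in few cells and a site bound weakly in many cannot be told apart, and the neurons that use these genes are a minority of an embryo.

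CLAMP is a zinc-finger protein that binds runs of alternating G and A and helps the dosage compensation complex find the single X chromosome of males. Dpr proteins (defective proboscis extension response) on one neuron bind DIPs (Dpr-interacting proteins) on another, and the many specific pairs label synaptic partners. Beat proteins (beaten path) are receptors or secreted partners for Side proteins (sidestep), and the founding pair, Beat-Ia and Side, steers motor axons towards muscle.

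CLAMP peaks were fewer at all 4 families than at other genes of similar length. An optimal peak lay at 4 of 54 genes (7.41%), whereas 13.3% of all protein-coding genes had one. The 54 genes are long, with a median of 36.2 kb against 2.17 kb over all protein-coding genes, and long genes meet more peaks. The comparison was therefore also made with the 20 other protein-coding genes nearest in length to each member, 815 genes in all, called genes of like length here. With each gene counted once for every member it was matched to, 43.8% had a peak, a share that corresponds to 23.65 of 54 genes. The family shares were counted in the same way. Each family was below its own genes of like length. Against the 13.3% of all protein-coding genes, however, the Beat share was higher (21.4%). The counts of 0 at Dpr and Side genes allow shares of up to 14.3% and 37.5%, limits that include 13.3%. The 4 genes with a peak were beat-Ia, beat-Ib, beat-IIIb and DIP-alpha, so Beat genes held 4 of the 5 peaks.

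To show what CLAMP met where it was found, the 101 bases centred on the summits of 4 of the 5 peaks are given below, read 5′ to 3′ on the plus strand of the Release 6 (dm6) genome sequence. Capitals mark the longest uninterrupted alternation of G and A, or of C and T on the other strand, where it reached 8 bp.
beat-Ia peak, chr2L:16049808-16049908: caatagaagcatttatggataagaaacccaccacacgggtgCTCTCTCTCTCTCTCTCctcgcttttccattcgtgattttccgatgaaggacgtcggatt
beat-Ib strong peak, chr2L:15911835-15911935: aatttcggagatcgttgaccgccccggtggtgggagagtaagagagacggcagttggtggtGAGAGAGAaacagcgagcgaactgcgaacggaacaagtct
beat-Ib weaker peak, chr2L:15908862-15908962: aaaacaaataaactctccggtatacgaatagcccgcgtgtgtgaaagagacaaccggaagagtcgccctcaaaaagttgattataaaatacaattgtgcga
DIP-alpha peak, chrX:3555159-3555259: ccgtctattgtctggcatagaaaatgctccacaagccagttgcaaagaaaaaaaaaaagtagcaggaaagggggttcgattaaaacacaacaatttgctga

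The beat-Ia summit lay within a 17-bp alternation of C and T, and the strong beat-Ib summit lay next to an 8-bp alternation of G and A. Neither the weaker beat-Ib summit nor that in DIP-alpha had such a run within 100 bp, where the longest was 5 bp in each. The longest at the beat-IIIb summit, in the coding part of an exon, was 4 bp. In DIP-alpha, however, an 18-bp run began 107 bp from the summit (X:3555316-3555333).

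The families can also be read from the other side, by long GA runs inside the genes at which no optimal peak was found. The 4 sequences below show runs of 24 to 29 bp with 30 bases on each side, in the same genome and orientation, with the run in capitals.
beat-IIIc run without a peak, chr2L:17215784-17215872: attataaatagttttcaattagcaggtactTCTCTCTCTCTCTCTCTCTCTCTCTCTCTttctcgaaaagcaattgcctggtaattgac
side run without a peak, chr3R:27426181-27426269: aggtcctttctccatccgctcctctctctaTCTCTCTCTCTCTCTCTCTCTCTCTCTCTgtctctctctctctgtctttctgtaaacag
side-VI run without a peak, chr3R:10981303-10981388: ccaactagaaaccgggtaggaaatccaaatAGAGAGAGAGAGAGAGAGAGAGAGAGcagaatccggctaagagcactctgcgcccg
beat-IIIb run without a peak, chr2L:16986684-16986767: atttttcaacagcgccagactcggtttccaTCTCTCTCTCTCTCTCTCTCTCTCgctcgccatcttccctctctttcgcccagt

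All 4 runs were longer than the one under the beat-Ia peak. The nearest optimal summit was 223083 bp from the run in beat-IIIc, 15222 bp from that in side, 127246 bp from that in side-VI and 5994 bp from that in beat-IIIb. Weaker regions of the pooled list, made from both replicates with background regions included, were closer, at 379 bp, 229 bp, 615 bp and 154 bp in the same order. The one near the side run was the strongest region of side, with a signal of 116.6, just below the optimal set.

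None of the 21 Dpr genes had an optimal peak. The genes are dpr1 to dpr21, single-pass or membrane-anchored proteins with a pair of immunoglobulin domains, and 38.8% of their genes of like length had a peak. A count of 0 of 21 allows a share of up to 14.3%. The longest Dpr genes were no exception: dpr6 spans 165 kb, and 14 of its 20 genes of like length had a peak. For dpr8, of 140 kb, the number was 13 of 20, and for dpr21, of 125 kb, it was 16 of 20.

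By pooled signal, the strongest Dpr regions fell just short of the optimal set. The list pooled from both replicates reaches further down than the optimal set, to 30000 regions that include background, and its signal is an enrichment value given by the authors' processing. The lowest signal in the optimal set was 123.0. At dpr13 the strongest pooled region had a signal of 114.0, at rank 3481, and the region within 200 bp of it had a signal of 82.8 in replicate 4 and 25.4 in replicate 2. At dpr11, which encodes a ligand of DIP-gamma, the pooled signal was 110.3, with 83.7 in replicate 4 and 20.9 in replicate 2 at the same place. At dpr14 on the X chromosome it was 106.4, with 66.5 in replicate 4 and 26.2 in replicate 2. By rank, the regions at dpr13, dpr11 and dpr14 stood at 3782, 3701 and 7003 in replicate 4. In replicate 2 they stood at 7670, 13679 and 7075, further beyond the size of the optimal set. The strongest region of replicate 2 lay elsewhere in all 3 genes, with a signal of 25.9 in dpr13, 38.1 in dpr11 and 41.9 in dpr14. These 3 genes had the highest pooled Dpr values, and the lowest Dpr gene with a pooled region was dpr21, at 61.4. The genes dpr7, dpr18 and dpr19 had no pooled region.

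Among the 11 DIP genes, DIP-alpha alone had an optimal peak (9.09%, against 43.6% of genes of like length). DIP-alpha encodes a receptor of Dpr6 and Dpr10 and lies on the X chromosome. Its peak (X:3555004-3555413, summit X:3555209) was in an intron, 16440 bp from the nearest DIP-alpha TSS, and the nearest TSS of any gene was that of ppk8 at 2603 bp. The signal was 155.0, at rank 2395 of the optimal set, and the region had rank 2139 (signal 111.1) in replicate 4 and rank 3369 (41.6) in replicate 2. The peak was thus in the weaker part of the set and lay beyond the size of the optimal set when the regions of replicate 2 were ranked. The other 10 were DIP-beta, DIP-gamma, DIP-delta, DIP-epsilon, DIP-zeta, DIP-eta, DIP-theta, DIP-iota, DIP-kappa and DIP-lambda. Their strongest pooled regions ranged from 56.4 at DIP-beta to 103.0 at DIP-theta, so none approached DIP-alpha. DIP-lambda is the longest of the 54 genes (379 kb), and its strongest region had a signal of 79.5.

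Beat was the family with most peaks, at 3 of 14 genes (21.4%, against 48.6% of genes of like length), and 3 of its 4 peaks lay in 1 gene cluster on 2L that holds beat-Ib, beat-Ic and beat-Ia. The strongest peak of all 4 families was in beat-Ib (2L:15911688-15912041, summit 2L:15911885). Its signal was 1523.1, at rank 235, with rank 226 (1120.0) in replicate 4 and rank 304 (366.3) in replicate 2. It was high in both replicates and the only one of the 5 peaks among the 300 strongest, or in the stronger 50%, of the set. The summit was inside beat-Ib, at 88.2% of the gene's length and 50550 bp from the beat-Ib TSS. It lay 194 bp from the TSS of lncRNA:CR44867, a long noncoding RNA gene nested in beat-Ib. A TSS of another such gene, lncRNA:CR44868, was also within 1 kb. The peak thus cannot be given to one of these genes rather than another from these data.

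A second, weaker beat-Ib peak (2L:15908707-15909116, summit 2L:15908912) lay further along, in an intron 53523 bp from the TSS. Its signal was 239.8, at rank 1692, with rank 1998 (117.4) in replicate 4 and rank 1435 (110.9) in replicate 2. The beat-Ia peak (2L:16049653-16050062, summit 2L:16049858) was the only one of the 5 near a TSS of its own gene, 107 bp upstream of it. The beat-Ia signal was 214.8, at rank 1839, with rank 1589 (153.4) in replicate 4 and rank 2426 (60.8) in replicate 2. It stood higher in replicate 4 than in replicate 2. Between them, beat-Ic had no optimal peak, and its strongest pooled region had a signal of 72.0.

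**Figure D1:**
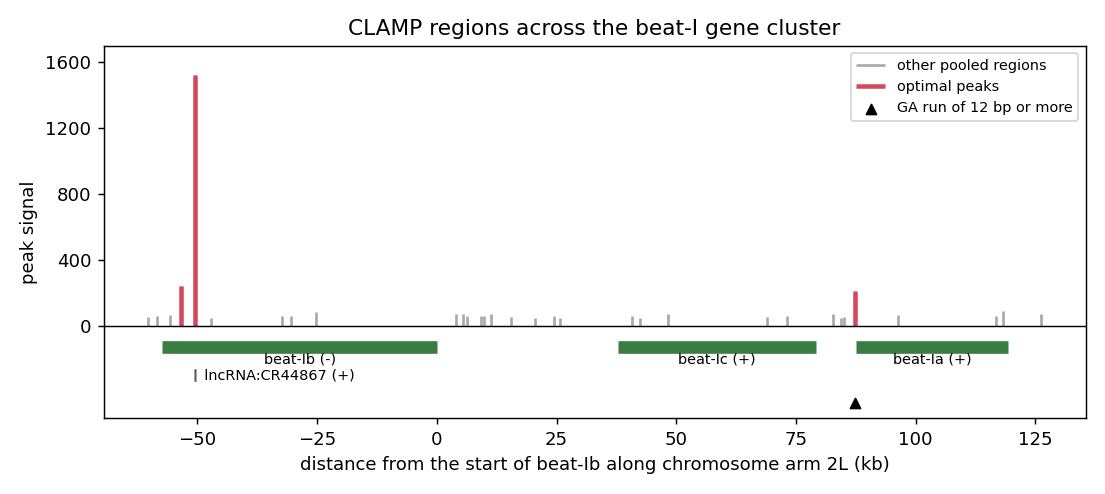
Signal of CLAMP regions of the pooled list (y axis) by distance from the TSS of beat-Ib along 2L (x axis, kb), with gene bodies and strands drawn below the axis, optimal peaks in red and GA runs of 12 bp or more as triangles. The 3 optimal peaks are at 1523.1 and 239.8 in the far part of beat-Ib and 214.8 at the start of beat-Ia, where the only such run of the window lies.

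The third Beat gene was beat-IIIb, with a peak in a coding exon (2L:16992526-16992935, summit 2L:16992731), 19640 bp from its TSS. At 124.2 its signal was just above the lowest of the set, at rank 3025, with rank 2621 (97.5) in replicate 4 and rank 5674 (28.7) in replicate 2. Just outside the set was beat-IIa, whose strongest pooled region had a signal of 120.4 at rank 3167, with rank 2971 (91.3) in replicate 4 and rank 7020 (26.3) in replicate 2. These neighbours on either side of the threshold differed little, and both stood higher in replicate 4 than in replicate 2. The remaining genes without a peak were beat-IIb, beat-IIIa, beat-IIIc, beat-IV, beat-Va, beat-Vb, beat-Vc, beat-VI and beat-VII, with strongest pooled signals from 61.5 at beat-Vb to 91.4 at beat-IIIa. At beat-VI, 14 of 20 genes of like length had a peak.

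No Side gene had an optimal peak, where 48.8% of genes of like length did. The 8 genes are side, side-II, side-III, side-IV, side-V, side-VI, side-VII and side-VIII, and a count of 0 of 8 allows up to 37.5%. The founding member, side, came closest, with a pooled signal of 116.6 at rank 3348 and values of 79.2 in replicate 4 and 25.1 in replicate 2 at the same place. The strongest region of replicate 2 in side, at 34.7, was another one. The pooled signal was 101.6 at side-III, 98.3 at side-II and 79.0 at side-IV, and side-VII had no pooled region.

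**Figure D2:**
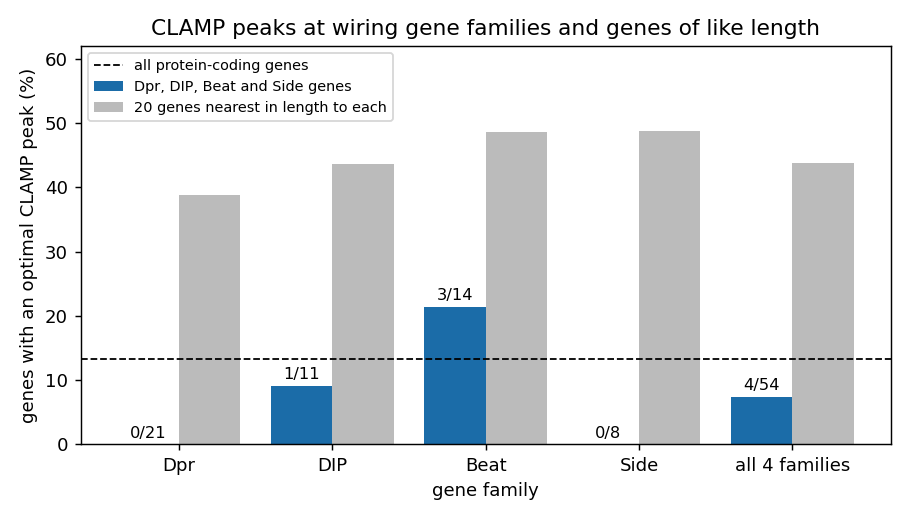
Percentage of genes with an optimal CLAMP peak within 1 kb of a TSS or inside the gene (y axis) for each family, with the counts above the blue bars, beside the genes of like length (grey) and all protein-coding genes (dashed line). The Beat share, 21.4%, is the only family bar above the dashed line at 13.3%, and all 4 families are below their genes of like length.

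Each of the 10 known receptor and ligand pairs examined includes a Dpr or a Side gene, and no gene of those 2 families had a peak. A peak at both partners was thus excluded by the family counts, and the pairs are listed for their values only. DIP-alpha had its peak of 155.0, and its partners dpr6 and dpr10 had none, with strongest pooled signals of 87.0 and 101.6. For side and its receptor gene beat-Ia the peak was at beat-Ia only. Neither gene had one in the pairs of DIP-gamma with dpr11, DIP-delta with dpr12, side-IV with beat-IIa or beat-IIb, and side-VI with beat-Va, beat-Vb or beat-Vc.

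The scarcity was found near the TSSs and inside the genes alike. Within 1 kb of a TSS a peak was present at 1 of 54 genes (1.85%), against 10.2% of all protein-coding genes and 27.7% of genes of like length. Inside the gene it was present at 3 of 54 (5.56%), against 9.85% and 40.4%. The 54 genes have fewer annotated start sites, with a median of 1.0 per gene against 2.0 for genes of like length, and the part of this in the difference near TSSs was not tested.

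In each length class the member share was the lower one. Of the members shorter than 10 kb, 0 of 10 had a peak, against 8.66% of other genes of that length. From 10 to 30 kb it was 1 of 11 against 37.3%, from 30 to 60 kb 2 of 22 against 49.4%, and above 60 kb 1 of 11 against 58.9%. At a share of 8.66% a count of 0 among 10 genes is common, so the shortest class shows no shortfall. The share of the other genes rose with length. The member counts, of at most 2 genes per class, are too small to show a trend of their own. By density, the member genes held 4 optimal summits in 2.52 Mb, or 1.59 per Mb. The genes of like length held 23.2 per Mb, and whole chromosomes 23.0 per Mb.

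Both replicates gave low counts when each was taken alone and cut to as many of its strongest regions as the optimal set holds. In replicate 4 such a region lay at 5 of 54 genes (9.26%), where 15.1% of all protein-coding genes and 41.7% of genes of like length had one. These 5 were the 4 genes with an optimal peak and beat-IIa. In replicate 2 the count was 2 of 54 (3.7%), beat-Ia and beat-Ib, against 13.2% of all genes and 45% of genes of like length. Only those 2 genes were therefore within this number of strongest regions in each replicate. All 5 optimal peaks had a summit within 200 bp in the whole list of both replicates, as had 79.9% of the other 3072 optimal peaks.

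**Figure D3:**
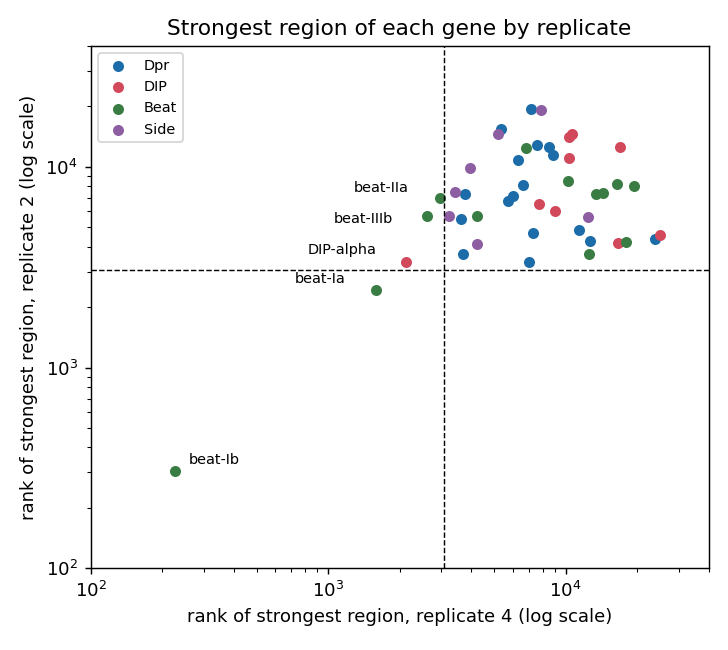
Rank of each gene's strongest region in replicate 4 (x axis) and replicate 2 (y axis), both on log scales, with 1 point per gene that has a region in both lists and dashed lines at the size of the optimal set. Only beat-Ib and beat-Ia lie within both lines, and DIP-alpha, beat-IIIb and beat-IIa lie within that of replicate 4 alone.

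The deeper lists, which include background, held regions in most of these genes. The pooled list held 378 regions inside the 54 genes, 150.0 per Mb against 193.0 in genes of like length, beside 1.59 against 23.2 per Mb for optimal peaks. Replicate 4 held 148.0 per Mb against 174.0, and replicate 2 held 189.0 against 241.0. No list had a region in dpr18, and dpr21 had 0 regions in replicate 4, where the median of its genes of like length was 13.5. GC content was 41.2% in the member genes and 41.5% in genes of like length. The strength of the best region was lower as well. Its pooled signal had a median of 80.3 over the 54 genes and 104.5 over genes of like length, with genes lacking a region counted as 0.

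Gene by gene, 45 of 54 members were below the median of their own 20 genes of like length in the pooled list, 44 in replicate 4 and 46 in replicate 2. The pooled list shares reads with both replicates, so the 3 counts are not independent. Of the 50 members with a pooled region, 41 had a region of replicate 4 and 27 one of replicate 2 within 200 bp of the strongest, so the strongest region was not always the same one. At dpr12 all 20 genes of like length had a stronger region, and at beat-VI and beat-Vb it was 19 of 20. At the other end, 2 of 20 exceeded beat-Ib and 5 of 20 exceeded beat-Ia. The 9 members at or above their own median were the 4 with a peak and dpr4, dpr5, dpr11, dpr14 and dpr17. By family, the median of the strongest pooled signal was 87.5 for Dpr, 79.5 for DIP, 77.6 for Beat and 95.7 for Side over the genes with a region. Their ranges overlapped, from 61.4 to 114.0 for Dpr, 56.4 to 155.0 for DIP, 61.5 to 1523.1 for Beat and 79.0 to 116.6 for Side.

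**Figure D4:**
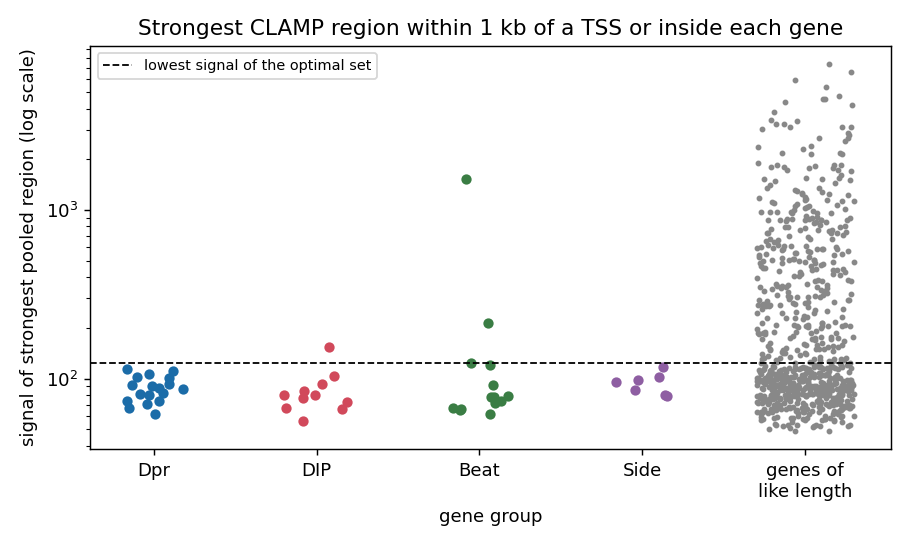
Signal of the strongest pooled CLAMP region of each gene (y axis, log scale) by family and for the genes of like length, with 1 point per gene that has a region and a dashed line at the lowest optimal signal, 123.0. Of the members, 4 points lie above the line, while many genes of like length lie far above it.

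Long GA runs inside the genes mostly lacked a peak, as most did in genes of like length. Only 4 optimal summits lay inside the members, so few runs could have one nearby. The share below is therefore not independent of the peak count. Runs of 12 bp or more, on either strand, numbered 41 in 20 of the 54 genes. Of these 1 (2.44%, exact binomial 95% interval 0.0617 to 12.9%), the run in DIP-alpha, had an optimal summit within 200 bp. In genes of like length 172 of 771 runs did (22.3%, 19.4 to 25.4%). Runs in 1 gene share their surroundings and are not independent, with up to 5 runs in 1 gene (DIP-alpha), so the intervals cover counting error only and no test was made. The beat-Ia run lies upstream of the gene and is not among the 41.

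Run number and length were also looked at, since they bear on this share. The members held 16.3 such runs per Mb against 24.0 in genes of like length, and the median run was 15.0 bp in both. No run had an optimal summit in the Dpr genes (of 15), the Beat genes (of 6) or the Side genes (of 11), and 1 of 9 did in the DIP genes. Of runs of 20 bp or more, 0 of 7 did in the members and 33.5% of 173 in genes of like length. Taken alone, replicate 4 gave 2.44% against 16.9% and replicate 2 gave 0 of 41, which allows up to 7.32%, against 21.4%. Weaker regions were nearer: 13 of the 41 runs (31.7%) had any pooled region within 200 bp, against 40.3% in genes of like length. The median distance from a run in these genes to the nearest optimal summit was 102.0 kb.

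**Figure D5:**
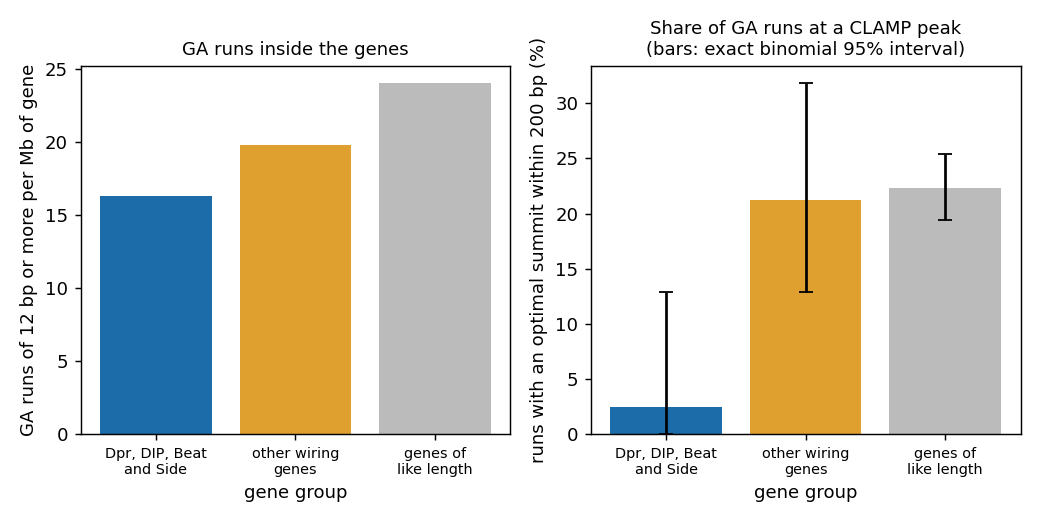
Left, GA runs of 12 bp or more per Mb of gene (y axis) in the Dpr, DIP, Beat and Side genes, other wiring genes and genes of like length. Right, percentage of those runs with an optimal summit within 200 bp (y axis), with exact binomial 95% intervals as bars; 2.44% in the 4 families is below 21.2% in other wiring genes and 22.3% in genes of like length.

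The 5 peaks were also set beside the rest of the optimal set. Their median signal was 214.8, against 273.7 for the other 3072 peaks, and 1 of 5 was in the stronger 50% of the set. Of the 5 summits, 2 had a GA run of at least 8 bp in the 100 bp on either side (40%, 5.27 to 85.3%), as had 34.4% of the others. The interval for 5 peaks holds the share of the others, so no difference was detectable at this number. Of the 5, 2 were within 500 bp of a TSS of some gene, 2 were in introns and 1 was in a coding exon. The nearest TSS was that of the member gene itself for 1 of the 5, at beat-Ia. The other peaks were within 500 bp of a TSS in 35% and in introns in 36.7%.

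Most members lay inside wide stretches without any optimal peak. The 47 genes without a peak that had an optimal summit on either side were in 40 such stretches, with a median width of 212.0 kb. Genes of like length without a peak were in stretches with a median of 151.0 kb, from 14.1 to 1820.0 kb. Among the members, the widest stretch was 999.0 kb around DIP-beta, followed by 675.0 kb around dpr8 and 597.0 kb shared by beat-IIIa and beat-IIIc. The partners dpr6 and dpr10 shared a stretch of 322.0 kb, and beat-IIa and beat-IIb shared 352.0 kb. The narrowest at a member, 38.5 kb, was around dpr14. An optimal summit lay outside the 1 kb limit but 3.13 kb upstream of dpr10, and another 3.98 kb upstream of side.

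Of the 5 peaks, 4 lay on 2L and 1 on X. The 16 genes on 2L included 3 with a peak, the 5 on X included 1, and 0 of 7 on 2R, 0 of 4 on 3L, 0 of 21 on 3R and 0 of 1 on chromosome 4 had one. On the autosomes together 3 of 49 (6.12%) had a peak, against 40.9% of genes of like length. On X the figures were 1 of 5 and 61%. The first optimal summit on 2R was at 4.66 Mb, beyond DIP-lambda and dpr21. Without these and dpr7, which also had no optimal summit on one side, 4 of 51 genes (7.84%) had a peak. Of genes of like length as defined above, 43.2% did.

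Other genes of neuronal wiring, listed by function, were together nearer to genes of like length, though not in every class. Of 84 matched genes (85 listed), 30 (35.7%) had an optimal peak by the same rule, and 41.2% of their genes of like length did. Slit, netrin and semaphorin ligands had a peak at 5 of 9 (55.6%, against 39.4% of genes of like length). Their highest signal was at Sema2a (1778.0), a secreted semaphorin. Guidance receptors had one at 5 of 14 (35.7%, against 37.1%), led by the Slit receptor gene robo1 (1524.1). Receptor tyrosine phosphatases had one at 2 of 6 (33.3%, against 37.5%), led by Ptp10D (600.8). Leucine-rich repeat proteins had one at 6 of 14 (42.9%, against 40%), led by haf (291.2). Cadherins and teneurins had one at 5 of 12 (41.7%, against 43.8%), led by Ten-a (657.8). Neurexins and neuroligins had one at only 1 of 7 (14.3%, against 42.9%), Nrx-1 (194.4). That share was below the 21.4% of the Beat genes.

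The class listed as immunoglobulin adhesion proteins, without the 4 families, had a peak at 6 of 22 genes (27.3%, against 44.5% of genes of like length). Its highest signal was at tutl (1133.6). The density over all 84 wiring genes was 14.4 optimal summits per Mb, and 17 of the 80 GA runs in them of 12 bp or more (21.2%, 12.9 to 31.8%) had a summit within 200 bp. No test was made between these classes and the 4 families.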

How the data were processed

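Peaks were described from the deposited dm6 lists: 1 per replicate, 1 pooled from both, and the optimal set, of 3077 peaks, which the deposited text files derive from those lists by irreproducible discovery rate. The signal of each peak is the authors' deposited enrichment value and was compared only within a list. The aligner, the caller, the threshold and any scaling of the signal to depth: not given in the sources used here. Read depth is unknown, so intervals and limits of a count of 0 (3 counts) cover counting error only. The dm3 lists were not used.

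Genes, TSSs and sequence came from the BDGP annotation 6.54 of Ensembl release 115 and the Release 6 genome. Members and lists were chosen with earlier results of these data known, so no test over a list was made. All members are named, and so are the 3 of highest signal in each family and the highest of each class of other wiring genes. Replicate summits were matched within 200 bp. As a check of the code alone, 200 of 200 summits planted inside the 1 kb limit of a TSS were given to their gene. This does not measure accuracy on real peaks. Alternatives were other distances, run lengths, windows and numbers of genes, the 1538 strongest peaks, and single replicates. Python 3.11.15, numpy 2.4.6, scipy 1.17.1, pandas 2.3.3 and matplotlib 3.10.9 were used.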

Additional observations from a re-analysis of the deposited data

How the results depend on the processing

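The count of 4 genes with a peak stayed at 4 with distances from a TSS of 500 and 2000 bp and with protein-coding TSSs only. It was 1 with the stronger 50% of optimal peaks and 1 when a peak counted only for the gene of the nearest TSS, and ranged from 2 to 5 when each replicate was left out in turn. The count near a TSS was 0 instead of 1 with the stronger 50%. The count inside genes, 3, was 1 with the stronger 50%, 0 with the nearest TSS only, and 1 to 4 when each replicate was left out. Genes of like length gave 23.5 and 24.04 for 10 and 50 nearest genes. Of the 5 peaks, 3 were among the strongest regions of replicate 2 when these were cut to the size of the optimal set. Peaks with a GA run numbered 1 instead of 2 for runs of 12 bp or more, and 1 with the stronger 50% of peaks. The share of GA runs with a summit ranged from 0 to 2.44% when each replicate was left out, was 1.82% for runs of 10 bp or more and 5.26% for runs of 16 bp or more; these settings were chosen after seeing the data. The causes of these changes were not tested beyond the smaller number of peaks or the stricter rule that each setting imposes. With 2 replicates, 1 group and no read totals, weak sites near the signal threshold cannot be separated from absent ones.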
